A study of Drosophila melanogaster with 4 samples.

Results

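Isolated narrow Fru peaks are regions called as peaks after chromatin immunoprecipitation and sequencing (ChIP-seq) with a rabbit polyclonal antibody against Fruitless (Fru). They were under 1000 bp wide and lay over 10000 bp from the next peak on both sides. They were chosen by the measured width and spacing of peaks in the 1 peak list of the series, and 590 of the 5339 peaks on the chromosome arms X, 2L, 2R, 3L, 3R and 4 met the rule, or 11.1% (exact 95% interval 10.2% to 11.9%). The whole list held 5538 peaks. A peak with no neighbour towards the end of its arm counted as isolated on that side, which applied to 5 of the 590.

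The peaks came from whole Drosophila melanogaster embryos, with 2 ChIP libraries and 2 libraries of input DNA (chromatin DNA sequenced without immunoprecipitation). All 4 libraries were from the strain y; cn bw sp, whose labelled genotype carries cn[1], bw[1] and sp[1] beside y[1] and oc[R3.2], as well as Gr22b[1], Gr22d[1] and CG33964[R4.2], and further Rh6[1], GstD5[1], LysC[1], MstProx[1] and lab[R4.2]. The labelled stage was 0 to 8 h, although the protocol in the labels speaks of an egg laying of 8 to 16 h, and the sex was labelled as unknown. Whole embryos hold many cell types, so a region bound in few cells and a region bound weakly in many cannot be told apart. The list held no value per library, so spreads below are over peaks, the read depth behind each peak is unknown, and agreement between the 2 ChIP libraries could not be assessed.

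Fru belongs to the family of transcription factors that pair a BTB domain, through which the proteins bind each other, with zinc fingers that contact DNA. Transcripts from the distal promoter of the gene are spliced differently in the sexes and make the male products known for building the courtship circuit, while transcripts from other promoters make products common to both sexes that are needed for viability. In ChIP-seq a single bound site gives a peak about as wide as the sheared fragments, and several sites close together merge into broad peaks or rows of peaks. Isolated narrow peaks are therefore the simplest shape in such a list, with no other called peak close by.

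The rule used widths and distances, and the authors' peak score comes from the same comparison of ChIP with input. Widths, gaps, scores and positions are for this reason described here without tests. The intervals on shares are exact binomial ones and those on medians come from the ranks of the peaks, and both cover counting error only and treat peaks as independent. Neither the gene table, which is of another release of the genome than the peaks, nor a genome sequence was used here. Peaks are named by Release 5 coordinates, with no gene or sequence attached.

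Most Fru peaks under 1000 bp were not isolated. Of the 4827 narrow peaks on the arms, 4237 had a neighbour within 10000 bp and 590 did not, a share of 12.2% (exact 95% interval 11.3% to 13.2%). There were 637 isolated peaks of any width, and 590 of them, or 92.6% (90.3% to 94.5%), were under 1000 bp wide, with 47 broad (1000 bp or wider). Of all arm peaks, 90.4% were narrow, so the share among isolated peaks was close to that in the whole list. Together the isolated narrow peaks covered 233.8 kb, which was 8.36% of the bases covered by all arm peaks.

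Isolated narrow peaks were short. Their median width was 326 bp (quartiles 244 and 489 bp, range 201 to 998 bp, n = 590), compared with 350 bp (quartiles 256 and 532 bp) for the 4237 narrow peaks with a near neighbour. The narrowest band, 201 to 250 bp, held 160 isolated peaks, or 27.1% of them, against 994 or 23.5% of the narrow peaks with a near neighbour. The least width in the list was 201 bp, and 29 isolated peaks (4.92%, exact 95% interval 3.32% to 6.98%) had exactly this width, compared with 139 (3.28%, 2.76% to 3.86%) of the narrow peaks with a near neighbour. At the other end few isolated peaks lay near the width limit. Widths of 900 bp or more were found for 9 of them, and 9 isolated peaks just over the limit were narrower than 1100 bp. The widest inside were 978 bp (score 21.87), 997 bp (score 21.77) and 998 bp (score 23.60), and the narrowest outside were 1000 bp (score 20.14), 1006 bp (score 22.30) and 1014 bp (score 13.17).

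Scores of isolated narrow peaks had a median close to that of narrow peaks with a near neighbour, and a small high tail. The score has no stated scale and serves here to rank peaks within the list. Its median was 11.66 (95% interval 11.22 to 12.23), with quartiles of 9.48 and 15.1 and a range from 6.24 to 105.91. The narrow peaks with a near neighbour had a median score of 11.80 (quartiles 9.63 and 14.89), so the bulk of both groups overlapped. The 47 isolated broad peaks scored higher, with a median of 26.30 and quartiles of 20.6 and 37.61. Of the isolated narrow peaks, 271 (45.9%) scored above the median of all arm peaks and 119 (20.2%) above their upper quartile of 16.57. The same median was exceeded by 1890 (44.6%) of the narrow peaks with a near neighbour. A score over 30 was reached by 24 of the isolated narrow peaks, 4.07% (exact 95% interval 2.62% to 5.99%), compared with 92 or 2.17% (1.75% to 2.66%) of the narrow peaks with a near neighbour. For a score over 50 the numbers were 8 (1.36%, 0.587% to 2.65%) and 25 (0.590%, 0.382% to 0.870%), and 2 peaks in each group scored over 100. Of the 47 isolated broad peaks, 18 (38.3%) scored over 30 and 11 (23.4%) over 50. Among all 5339 arm peaks, the lowest of the 8 isolated narrow peaks over 50 ranked 117. The lower of the 2 over 100 ranked 53. Most arm peaks above these ranks were therefore of other groups. As scores come from the same comparison of ChIP with input as the widths and gaps used by the rule, the shares are set side by side and were not tested.

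**Figure D1:**
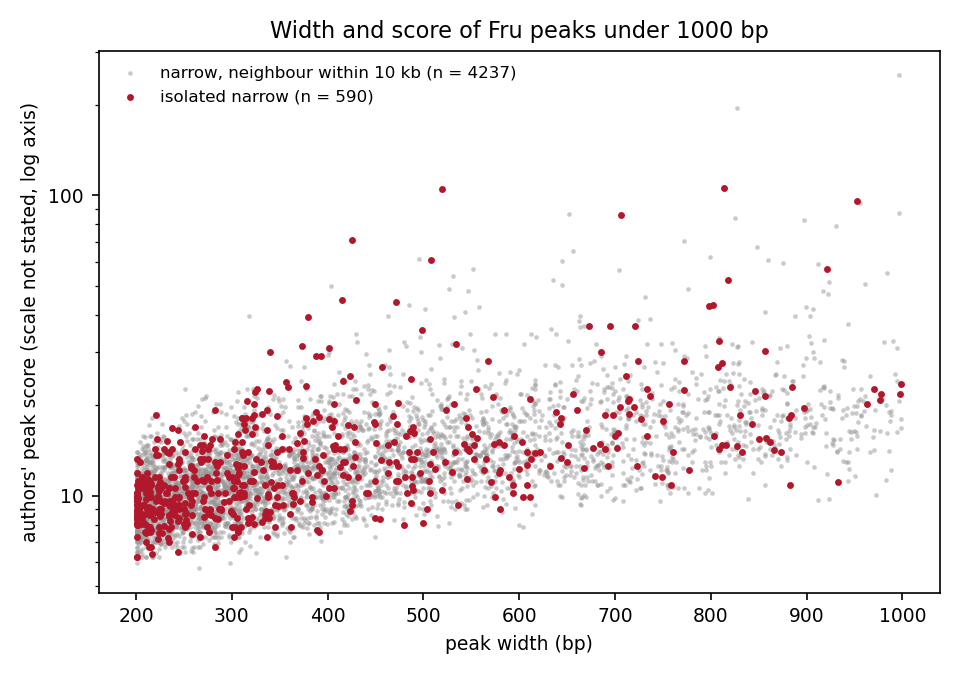
Authors' peak score (log axis, scale not stated) against width in bp for the 590 isolated narrow peaks (red) and the 4237 narrow peaks with a neighbour within 10 kb (grey), 1 point per peak. Both clouds rise with width and overlap for most of their range, and 8 red points lie above a score of 50, the narrowest of them 426 bp wide.

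Wider isolated peaks scored higher. Across the 590 peaks Spearman's rho between width and score was 0.62, and on log10 values Pearson's r came to 0.59. The values for the 4237 narrow peaks with a near neighbour were 0.63 and 0.62. These are correlations across peaks of 1 list, which share their libraries and depth and are no replicates. Isolated peaks of 201 to 250 bp had a median score of 9.32 (95% interval 9.02 to 9.82), and the highest score up to a width of 300 bp was 19.35, for a peak of 282 bp. Those of 401 to 600 bp had a median of 13.97 (12.91 to 14.70), and those of 601 to 999 bp 18.14 (15.82 to 19.73).

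At similar widths the median scores of isolated peaks and of narrow peaks with a near neighbour were close. The shares over a score of 30 were higher for isolated peaks in the 3 wider bands. In the bands of 201 to 250 bp and 251 to 300 bp the isolated peaks had medians of 9.32 and 10.41, against 9.63 and 10.57 for the peaks with a near neighbour. In the 3 wider bands the order was the opposite, with 11.99 against 11.52 at 301 to 400 bp, 13.97 against 13.42 at 401 to 600 bp and 18.14 against 16.96 at 601 to 999 bp. The 95% intervals of the paired medians overlapped in all 5 bands. Scores over 30 made up 2.22% of the isolated peaks at 301 to 400 bp (3 of 135), against 0.118% (1 of 849) of those with a near neighbour. At 401 to 600 bp the shares were 6.50% (8 of 123) and 2.82% (27 of 959), and at 601 to 999 bp 13.8% (13 of 94) and 8.02% (64 of 798). Up to 300 bp no peak of either group scored over 30. These shares rest on few peaks, no intervals were computed for them, and they were not tested. The highest score of any narrow peak, 250.3, belonged to a peak with a near neighbour in the band of 601 to 999 bp.

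**Figure D2:**
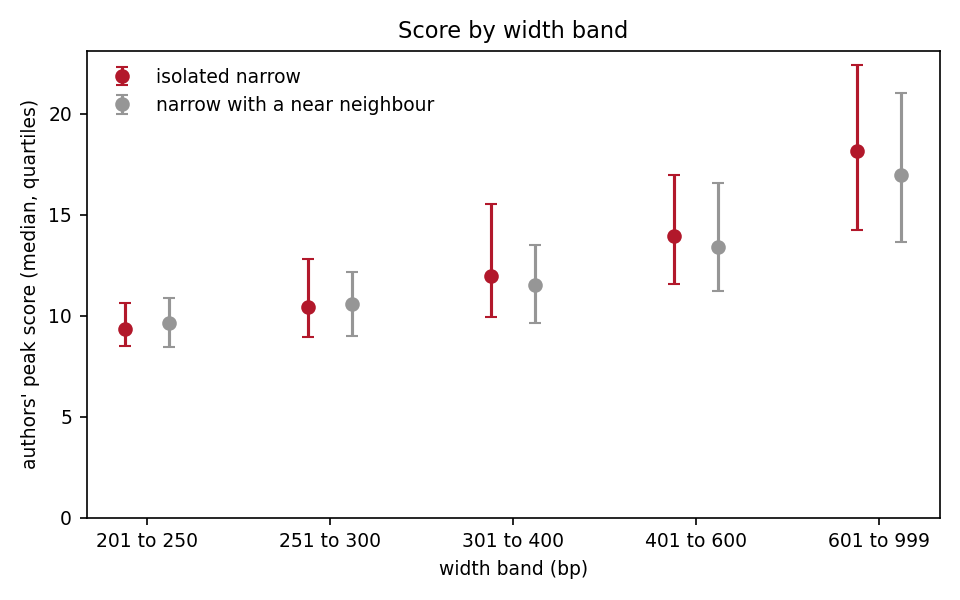
Median score (points) with quartiles (bars) in 5 bands of peak width in bp, for isolated narrow peaks (red) and narrow peaks with a near neighbour (grey). The medians climb from 9.32 to 18.14 for isolated peaks and from 9.63 to 16.96 for the others, and the quartile bars overlap in each band.

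Scores of isolated peaks often repeated. The 590 peaks held 249 distinct values, of which 9.94 was the most frequent with 20 peaks, followed by 9.02 with 18 and 10.25 with 16. Of the 20 values most frequent over all arm peaks, each held by at least 54 of them, 1 was the score of 241 isolated narrow peaks, or 40.8% (exact 95% interval 36.9% to 44.9%). The share was 28.9% (27.6% to 30.3%) among narrow peaks with a near neighbour and 0% (0 of 47, upper limit 7.55%) among isolated broad peaks. The frequent values named above lie below 13.17, the lowest score of an isolated broad peak. Another frequent value, 14.33 with 15 isolated narrow peaks, lies above it. The cause of the repeats was not tested.

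The highest-scoring isolated narrow peak was on 3L from 10764728 to 10765541, 814 bp wide with a score of 105.91. It ranked 52 among all arm peaks, and its neighbours lay 79.9 kb before it and 36.9 kb after it with scores of 11.22 and 9.02. The second was on 2L from 1556723 to 1557241. It scored 105.18 in 519 bp, with gaps of 95.8 and 55.7 kb to neighbours that scored 15.63 and 14.33, and the nearest broad peak was 395.1 kb away.

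The third peak, on 3R from 646247 to 647199, was 953 bp wide and scored 95.76. It was close to the limit of isolation, with gaps of 10.3 and 11.8 kb, and the peak after it scored 38.65. The fourth was on the small chromosome 4 from 817944 to 818649, with a score of 85.93 in 706 bp and gaps of 140.1 and 232.2 kb. It was followed by another peak on 3R, from 12359473 to 12359898, which scored 71.06 in 426 bp and was the narrowest isolated peak over a score of 50. A further peak on 3R, from 26285714 to 26286221, scored 60.71 in 508 bp.

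A peak on 3L from 18265359 to 18266279 scored 56.79 in 921 bp, and the highest on X, from 8544430 to 8545247, scored 52.03 in 818 bp. The 10 highest ended with 2 peaks on 2L of 415 and 471 bp that scored 44.62 and 44.07. The first of these, from 22364810 to 22365224, was also among the most isolated of the high scorers, with gaps of 197.1 and 299.8 kb. The neighbours of these 10 peaks scored from 8.30 to 38.65. Over the whole group, 183 of the 585 isolated narrow peaks with a neighbour on each side (31.3%) scored above both and 211 (36.1%) below both, and for narrow peaks with a near neighbour the shares were 28.1% and 35.5%.

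Peaks of the high tail were found on all 6 arms. Of the 24 isolated narrow peaks over a score of 30, 9 lay on 3R, 6 on 2L, 4 on X, 3 on 3L, 1 on 2R and 1 on chromosome 4. In the same order, these arms held 136, 119, 99, 120, 111 and 5 isolated narrow peaks. On 2R, which held 111 isolated narrow peaks, the highest was a 695 bp peak from 8087623 to 8088317 with a score of 36.57, and the next scored 23.08 and 22.73. On X the next highest peaks scored 42.97 (802 bp, from 10680013 to 10680814) and 36.57 (721 bp, from 19780957 to 19781677). The next on 3L after those named above scored 35.54 and lay from 3963872 to 3964370. These counts are small, were not set beside those of all arm peaks over a score of 30, and were not tested.

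Isolated narrow peaks occurred at similar numbers per Mb on all 6 arms, while the numbers of all peaks per Mb differed widely. Per Mb between the first and last peak of an arm, they numbered 4.75 on X, 4.88 on 3R, 4.94 on 3L, 5.25 on 2L, 5.32 on chromosome 4 and 5.68 on 2R. All peaks together ran from 12.8 per Mb on chromosome 4 and 33.9 on X to 62.0 on 2R. The share of an arm's peaks that were isolated and narrow therefore fell where peaks were dense. It was 9.16% on 2R (111 of 1212, exact 95% interval 7.59% to 10.9%), 9.55% on 3R (136 of 1424, 8.07% to 11.2%) and 11.5% on 3L (120 of 1040, 9.66% to 13.6%). On 2L it was 12.6% (119 of 945, 10.5% to 14.9%) and on X 14.0% (99 of 706, 11.5% to 16.8%). Chromosome 4 held 5 isolated peaks among 12, or 41.7% with a wide interval of 15.2% to 72.3%. A large distance to the next peak is harder to meet where peaks are dense. The similar numbers per Mb and the order of these shares therefore both follow in part from the rule, and the number per Mb on chromosome 4 rests on 5 peaks.

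**Figure D3:**
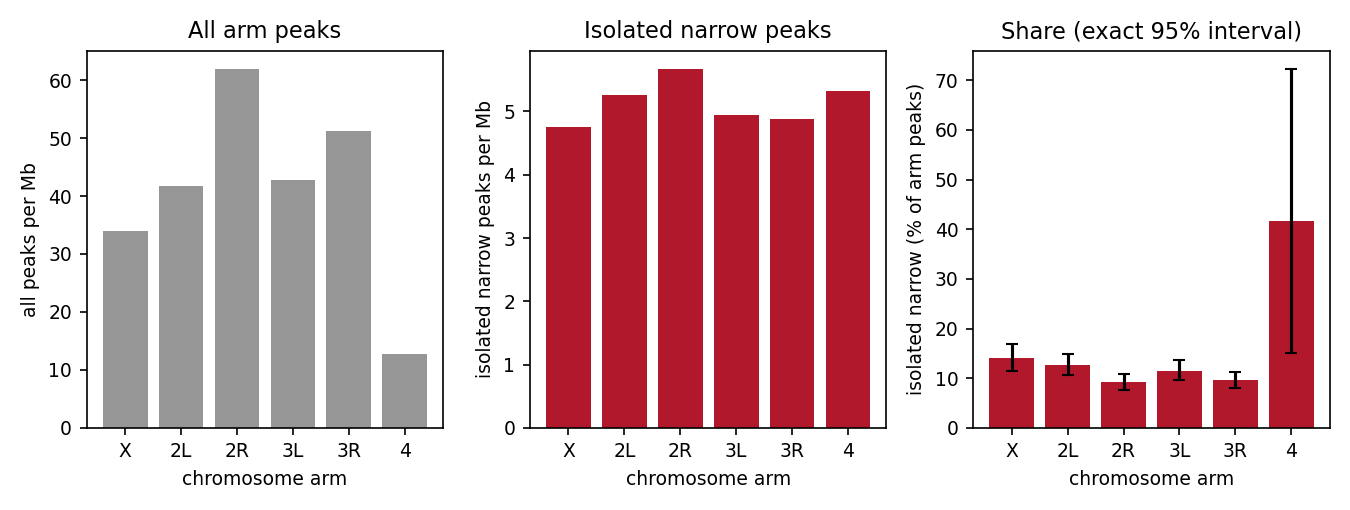
Bars for the 6 chromosome arms: all Fru peaks per Mb (left, grey), isolated narrow peaks per Mb (middle) and isolated narrow peaks as a percentage of the arm's peaks with exact 95% binomial intervals (right). All peaks run from 12.8 to 62.0 per Mb, whereas isolated narrow peaks lie between 4.75 and 5.68 per Mb on all 6 arms. The rule itself limits the number of isolated peaks where peaks are dense.

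The scores of isolated narrow peaks differed little between arms. Medians were 11.22 on 3L, 11.25 on chromosome 4, 11.52 on 2R, 11.55 on X, 11.89 on 2L and 12.28 on 3R, and the 95% intervals of these medians all overlapped. On X the median of 11.55 (10.57 to 13.26) was above that of the narrow peaks with a near neighbour on the same arm, 10.89, while on 2L both were 11.89. On 2R and 3L it was below, with 11.52 against 11.95 and 11.22 against 11.89, and on 3R above, with 12.28 against 11.91. Median widths ran from 315 bp on X to 345 bp on 3R over the 5 large arms and were below those of the narrow peaks with a near neighbour on each of them (326 to 363 bp).

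In 1 Mb windows laid from base 1 of the 5 large arms, the number of isolated narrow peaks was 4.92 ± 2.77 (SD, n = 119 windows, those at arm ends being partly empty). All peaks numbered 44.8 ± 20.3 in the same windows. The SD was thus 0.563 of the mean for isolated narrow peaks and 0.453 of the mean for all peaks. Counting error alone makes this ratio larger when the mean count is smaller. The 2 ratios therefore do not show which kind of peak was spread more evenly. Windows with under 25 peaks of any kind held 4.16 ± 3.24 isolated narrow peaks (SD, n = 19), those with 25 to 49 held 5.35 ± 2.57 (n = 54), those with 50 to 74 held 4.78 ± 2.76 (n = 37) and those with 75 to 101 held 4.44 ± 2.92 (n = 9). The isolated share of peaks fell over the same classes, from 28.4% to 14.1%, 7.88% and 5.30%, which follows in part from the rule. Only 2 windows had no isolated narrow peak.

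**Figure D4:**
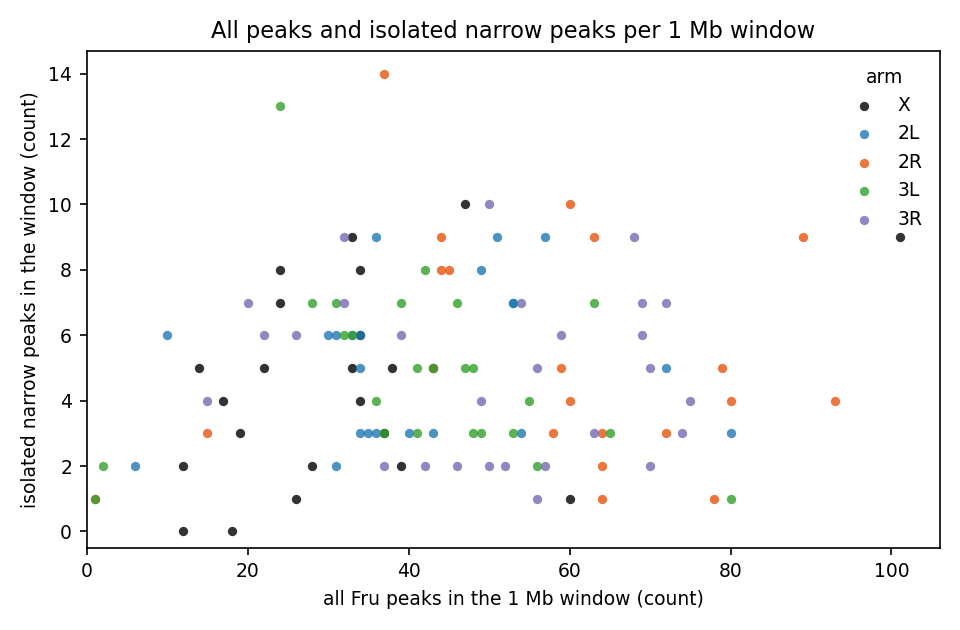
Number of isolated narrow peaks against the number of all Fru peaks in each of 119 windows of 1 Mb, coloured by arm. Counts of all peaks reach 101 and those of isolated narrow peaks 14, and the class means of the latter lie between 4.16 and 5.35.

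The window richest in isolated narrow peaks was on 2R from 12000001 to 13000000, where 14 of 37 peaks were of this kind, with scores from 7.17 to 22.45. The second was on 3L from 18000001 to 19000000, with 13 of 24 peaks and scores from 8.72 to 56.79. Its highest score was that of the 921 bp peak named above. The window of X from 19000001 to 20000000 held 101 peaks, the most of all, and still 9 isolated narrow ones.

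Along the arms, the share of peaks that were isolated and narrow was highest in an inner segment of X, 2L, 2R and 3L. Each large arm was divided into 5 equal segments from its first to its last peak in the order of its coordinates. Over the 5 arms together the share of isolated narrow peaks was 8.69% in segment 1 (exact 95% interval 7.18% to 10.4%), 9.80% in segment 2 (8.12% to 11.7%), 13.3% in segment 3 (11.2% to 15.6%), 14.2% in segment 4 (12.0% to 16.6%) and 10.0% in segment 5 (8.28% to 12.0%). The numbers of isolated narrow peaks were 108, 110, 126, 134 and 107, against 1243, 1123, 950, 943 and 1068 peaks in all. As between arms, these shares follow in part from the rule. The highest shares were 24.0% in segment 4 of X (16.0% to 33.6%) and 20.8% in segment 4 of 2L (14.0% to 29.2%). On 3L and 2R they were 18.2% (12.9% to 24.6%) and 15.3% (10.8% to 20.9%), both in segment 3. Each is the largest of 5 shares, and its interval overlapped that of a neighbouring segment. On 3R the 5 shares stayed between 8.86% and 10.3%.

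Many isolated narrow peaks were not much further from a neighbour than the rule required. The smaller of the gaps on both sides had a median of 20.8 kb (quartiles 14.0 and 40.1 kb), and it was between 10 and 20 kb for 285 peaks or 48.3%. The larger gap had a median of 66.2 kb. It exceeded 100 kb for 195 peaks (33.1%), while both gaps did so for 25 (4.24%). Just inside the limit were peaks with a smaller gap of 10003 bp (score 25.07), 10004 bp (score 10.25) and 10050 bp (score 11.56). Just outside it were narrow peaks with 9982 bp (score 27.06), 9977 bp (score 10.57) and 9922 bp (score 16.79). A smaller gap of up to 11 kb was found for 34 isolated narrow peaks, and 52 narrow peaks missed the limit with a gap of over 9 kb.

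Median scores went up and down between classes of isolation. The median score was 11.55 (95% interval 11.09 to 12.52) for the 285 peaks with a smaller gap of 10 to 20 kb and 11.25 (10.57 to 12.24) for the 157 with 20 to 40 kb. It was 12.82 (11.22 to 13.97) for the 106 with 40 to 80 kb and 12.06 (9.94 to 13.97) for the 42 with over 80 kb, and the 4 intervals overlapped. Scores over 30 were found in all 4 classes, for 9, 5, 7 and 3 peaks. Median widths were 326, 326, 337.5 and 310.5 bp.

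**Figure D5:**
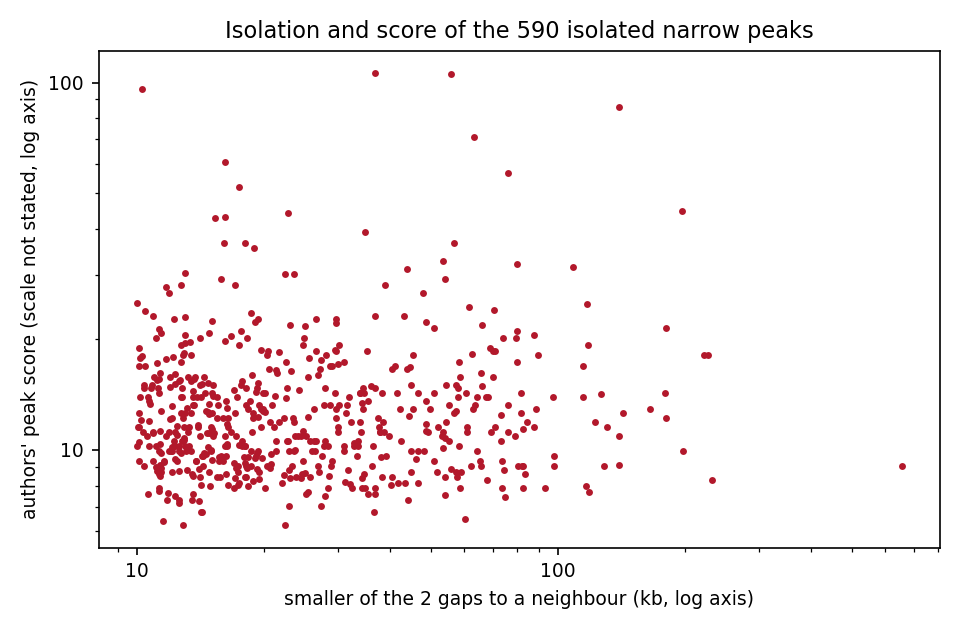
Authors' score (log axis, scale not stated) against the smaller gap to a neighbour in kb (log axis) for the 590 isolated narrow peaks. The scores show no steady trend with isolation, and the most isolated peak, 655.2 kb from its nearer neighbour, has a score of 9.02.

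The most isolated peak of all was on 3L from 23730230 to 23730446. It was 217 bp wide and scored 9.02, with gaps of 786.0 kb before it and 655.2 kb after it, and the nearest broad peak was 995.7 kb away. The next peak on the arm was isolated as well. A 252 bp peak on chromosome 4 from 1050819 to 1051070 had gaps of 232.2 and 274.8 kb and a score of 8.30. It followed the chromosome 4 peak of score 85.93.

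On X a 378 bp peak from 14956804 to 14957181 had gaps of 227.2 and 256.4 kb, and on 2L a 311 bp peak from 17728992 to 17729302 had gaps of 245.0 and 222.7 kb. Both scored 18.14. The fifth, on 3L from 4825884 to 4826084, had the least width of 201 bp, a score of 9.94 and gaps of 198.6 and 301.6 kb. None of the 5 most isolated peaks was among the 10 highest in score, but both lists are short. The 2L peak from 22364810 to 22365224, which ranked 9 in score, had a smaller gap of 197.1 kb, close to the 198.6 kb of the fifth. The 5 isolated narrow peaks of chromosome 4 scored 18.39, 9.10, 85.93, 8.30 and 11.25 in the order of their coordinates, so that 1 stood far above the other 4.

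The gaps beside isolated narrow peaks made up much of the genome between peaks. There were 949 such gaps, 17.8% of the 5333 gaps between arm peaks, and together they spanned 60.7 Mb, or 52.2% of the 116.1 Mb that the 6 arms span from first to last peak. Of the 305 gaps over 100 kb, 178 (58.4%) had an isolated narrow peak at 1 or both ends. As only large gaps can border such a peak, these shares describe the layout of the list.

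Of the 1175 neighbours of isolated narrow peaks, counted once from each side, 1100 (93.6%) were narrow, near the 90.4% of all arm peaks. Among the 1175, 452 (38.5%) were isolated narrow peaks themselves, a kind that made up 11.1% of all arm peaks. Each neighbour already has a gap of over 10 kb on its near side, so this share follows in part from the rule. A further 648 (55.1%) were narrow peaks with another peak close to them on their far side. Broad peaks made up the rest, with 54 (4.60%) that had a near neighbour and 21 (1.79%) that were isolated. The distance from an isolated narrow peak to the nearest broad peak on its arm had a median of 104.0 kb (quartiles 44.8 and 209.2 kb, n = 585 on the 5 large arms, since chromosome 4 had no broad peak). For narrow peaks with a near neighbour the median was 32.9 kb (quartiles 6.02 and 115.6 kb, n = 4230). Under 20 kb from a broad peak lay 50 isolated narrow peaks (8.55%), against 1783 (42.2%) of the narrow peaks with a near neighbour, and the rule itself sets a least distance of 10 kb for the former.

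Isolated narrow peaks also followed each other along an arm. Of the 590, 228 (38.6%) had no other isolated narrow peak beside them, 272 (46.1%) had one on 1 side and 90 (15.3%) had one on both. Read along the arms they formed 77 pairs, 35 runs of 3, 19 runs of 4, 3 runs of 5 and 2 runs of 6 with no other peak in between. One run of 6 extended over 187.7 kb on 3L from 18676414 to 18864142, with scores of 10.52, 8.72, 9.47, 16.09, 9.77 and 9.17. The other extended over 305.8 kb on X from 13052936 to 13358693, with scores of 8.72, 13.26, 8.72, 12.91, 18.14 and 20.18. Neither run contained a score over 30. A gap of over 10 kb counts for the peaks on both of its sides, so such runs follow in part from the rule.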

How the data were processed

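Anti-Fru ChIP DNA and input DNA were sequenced from whole embryos, 2 libraries each, cross-linked for 15 min in 1.8% formaldehyde per the labels' protocols. The authors deposited 1 list of peaks, each with its start and end (bp, FlyBase Release 5) and a score of unstated scale. Peaks were called with MACS, per the file headers. The build BDGP5 and the tools CASAVA (1.7.0.2 and 1.7.0.3), BWA and MACS2 are listed in the submitters' processing notes. Not given in the sources used here are the libraries behind the calls, pooling, threshold and depth.

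Gaps were counted in bases between the edges of neighbouring peaks of any width, on the 6 major arms. The rule was tested on simulated data. Named peaks are the 10 highest in score, the 3 highest per arm, the 5 with the largest smaller gap and the 3 nearest each limit. The 2 longest runs and the 3 windows described were chosen after their values were seen. The members and lists were chosen with earlier results of these data known. No test was run, as widths and gaps chose the members and scores come from the same comparison of ChIP with input. Tables were computed in pandas 2.3.3 with scipy 1.17.1 and numpy 2.4.6, and plots drawn in matplotlib 3.10.9, under Python 3.11.15.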

Additional observations from a re-analysis of the deposited data

Results flagged for a closer look

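The rule was also applied to sequences outside the major arms, which the description above does not use. There 141 of 199 peaks were under 1000 bp wide and over 10000 bp from any neighbour. They are given because they lie outside the measurement described and were not compared with it. They comprised 133 of the 167 peaks on the scaffolds U and Uextra, whose place is unknown, and 8 of the 10 on heterochromatic scaffolds, with median scores of 14.05 and 12.94, and 0 of the 22 on the mitochondrial genome. The highest of the 141 scored 876.73 in 564 bp. Distances on the unplaced scaffolds are distances within the assembly and not along a chromosome.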

How the results depend on the processing

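A least gap of 5000 bp gave 1006 isolated narrow peaks (18.8% of arm peaks) and one of 20000 bp gave 305 (5.71%). A width under 500 bp left a share of 8.39%, a median score of 10.64 and a median width of 287.5 bp, and peaks of any width a share of 11.9%. Keeping the arm peaks at or above the median score gave a share of 22.6%, a median score of 15.6 and a median width of 489 bp, and merging peaks closer than 1000 bp a share of 18.0%. These 12 values moved, and each of the 8 settings changes which peaks are counted, also where values stayed. The other 28 of 40 values stayed within 1.5 times the count or within the 95% interval, among them the share of isolated narrow peaks on X, 16.8% in the list and 14.6% to 17.4% over the 8 settings. A value that stayed need not rest on the same peaks. Keeping peaks at or above the median score gave 617 isolated narrow peaks, although only 271 of the 590 scored above that median. Leaving out peaks at an arm end was added after seeing the data. No paired analysis was possible because values per library are not in the list used here, and leaving out a replicate was not run for the same reason. Base composition and distance to gene starts were not analysed here. Depth per library is unknown, so an empty stretch may lack peaks or lack depth, which was not tested.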
